A study of Mus musculus with 18 samples.

Results

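The OSKM-iPSCs are induced pluripotent stem cells that were reprogrammed and then kept in N2B27, a serum-free basal medium, with doxycycline (DOX), which switches on a transgene for Oct4, Sox2, Klf4 and c-Myc. The 2iL-iPSCs are their counterparts in 2iL, which is N2B27 with the MEK inhibitor PD0325901, the GSK3 inhibitor CHIR99021 and the cytokine LIF. Here OSKM-iPSC clones 1 and 3 were compared with 2iL-iPSC clones 3 and 6, chosen by their sample titles, which are 4 of the 18 libraries of the series. The question was how far established iPSC clones held by transgene factors differ in mRNA from clones held by 2iL.

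All 4 clones came from mouse embryonic fibroblasts (MEFs) of the strain (C57BL/6 x 129S4/SvJae)F1, which carry rtTA in the Rosa26 locus and the DOX-inducible polycistronic OSKM cassette in the Col1a1 locus. All clones of both media therefore hold the cassette, and the 2iL-iPSCs were reprogrammed with it as well. MEFs without DOX, at passage 4, served as the starting cells (n = 2). The passage number was 7 in OSKM-iPSC clone 1, 6 in OSKM-iPSC clone 3, 2 in 2iL-iPSC clone 3 and 3 in 2iL-iPSC clone 6, so the effects of medium and passage cannot be told apart. The labels of the 2iL-iPSCs name N2B27 with DOX as their culture, whereas the design text and the methods name 2iL with DOX withdrawn after colonies were picked, and the clones were grouped by their titles. Colonies were grown on mitomycin-treated MEF feeders. The clones are picked colonies and not separate reprogramming experiments as far as the labels say, so p-values measure the spread between these samples. The other libraries used here are ESCs with the same transgene and an Oct4-GFP reporter, from a cross of the same (C57BL/6 x 129S4/SvJae)F1 strain with (CBA/CaJ X C57BL/6J)F2, kept in 2iL or moved to N2B27 with DOX for 18, 25 or 38 days (2 cultures per medium and day).

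Pluripotency is known in several states. Naive cells, as in the early epiblast, express factors such as Nanog, Esrrb, Klf2, Tbx3 and Tfcp2l1, and 2iL holds this state by blocking ERK signalling, by relieving repression through TCF7L1 when GSK3 is inhibited, and by LIF acting through STAT3. Cells that leave it pass through a formative state marked by Otx2, Pou3f1, Fgf5 and Dnmt3b before lineage commitment. Reprogramming of fibroblasts silences the mesenchymal programme, switches on epithelial genes and then the endogenous pluripotency network.

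Values are FPKM, fragments counted per length of transcript and per library size, so levels can be compared between genes. Differences are OSKM-iPSC minus 2iL-iPSC on the log2(FPKM + 1) scale, with standard errors (SE) and Benjamini-Hochberg adjusted p-values from limma over 13134 autosomal and mitochondrial genes with FPKM over 1 in at least 1 clone. X- and Y-linked genes were left out. A gene under 1 FPKM in both clones of a medium passed this limit only through the other medium. The order of its clones was thus largely set in advance. A gene is called higher or lower where the adjusted p is under 0.05. An exact permutation test on 1 gene alone could not pass, since its smallest 2-sided p with 2 clones against 2 is 0.333. Read depth is unknown, and the coverage per unit of FPKM was 5.68 and 6.07 in the OSKM-iPSC clones and 5.61 and 5.79 in the 2iL-iPSC clones, against 5.01 to 6.07 over all libraries. No 2 clones shared an identical value among genes with FPKM over 1 in both. An FPKM of exactly 0 can be a failed estimate, so such a gene is described as listed at 0 and no fold is given against it. The files report Pou5f1, Sox2, Klf4 and Myc as totals of transgene and endogenous transcripts.

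The label of the cells was checked against markers. Pou5f1 was at 437 and 513 FPKM in the OSKM-iPSC clones and at 668 and 811 FPKM in the 2iL-iPSC clones, and it was listed at 0 in MEFs. Fibroblast markers set OSKM-iPSC clone 1 apart. The summed FPKM of 26 fibroblast genes was 573.5 in this clone, 85.5 in OSKM-iPSC clone 3, 136.9 in 2iL-iPSC clone 3 and 127.6 in 2iL-iPSC clone 6, against 7257 in MEFs. None of the 26 was listed at 0 in OSKM-iPSC clone 1, 5 were in OSKM-iPSC clone 3, and 10 were in each 2iL-iPSC clone. By the median of 18 of these genes, the level was 6.91% of that in MEFs in OSKM-iPSC clone 1 (interquartile range 2.34 to 9.36%), 0.0749% in clone 3, 0.0247% in 2iL-iPSC clone 3 and 0.0089% in 2iL-iPSC clone 6. In bulk RNA, more fibroblasts and more fibroblast RNA per cell cannot be told apart, and the feeders are MEFs too. Counts below are therefore also given without OSKM-iPSC clone 1, or with 6.91% (and the other clones' shares) of the MEF profile taken off.

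Between the media, 701 of 13134 genes (5.34%) were higher in OSKM-iPSCs and 448 (3.41%) were lower, and the median difference over all genes was 0.07. The counts of calls in each gene list below stand against these shares of 5.34% higher and 3.41% lower. The median of the called genes was 1.49 for those higher and -1.54 for those lower. Of the 1149 calls, 61.01% were higher, but this split turned to 48.6% under median-ratio scaling (553 higher, 585 lower) and to 48.0% under quantile normalization (455 higher, 493 lower). At a fold of mean FPKM over 2 with an unadjusted limma p under 0.05 (the study set the same limits on p-values from Cuffdiff, another test), 1448 genes (11.0%) were higher and 860 (6.55%) lower. Without OSKM-iPSC clone 1, 394 genes were higher and 316 lower, and without OSKM-iPSC clone 3, 1294 were higher and 639 lower. With the estimated fibroblast RNA taken off, 510 were higher and 387 lower. Leaving out 2iL-iPSC clone 3 or clone 6 moved the median differences of the lists below to unlike degrees. The median over naive genes was then -2.66 and -2.42, against -2.54 with all clones. Over epithelial genes it was 1.45 and 1.19, against 1.496. The moves were larger for their size in some lists, as in germline genes (-1.09 and -1.71, against -1.07). Oncofetal genes had medians of 0.73 and 0.23, against 0.32, and cell cycle genes 0.34 and -0.07, against 0.00. Every call was lost when 2iL-iPSC clone 3 or clone 6 was left out, so every call below rests on both 2iL-iPSC clones. Leaving out an OSKM-iPSC clone is likewise a design of 2 clones against 1, but calls remained there. With 1 clone left in a medium, the spread comes from the other medium alone. Without a 2iL-iPSC clone it came from the OSKM-iPSC clones, which were less alike. With all clones the spread is pooled over both media. The part of this pooling in the calls was not tested.

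The OSKM-iPSC clones were less alike than the 2iL-iPSC clones. Between OSKM-iPSC clones 1 and 3, 9.11% of genes differed more than 2-fold (755 higher and 442 lower in clone 1), and between the 2iL-iPSC clones 2.10% did (171 and 105). Across media, 22.5% and 22.05% of genes differed more than 2-fold between OSKM-iPSC clone 1 and the 2iL-iPSC clones, and 14.1% and 13.7% between OSKM-iPSC clone 3 and them. The spread of the OSKM-iPSCs leaned the same way as the calls. Clone 1 was above clone 3 in 72.9% of the 701 genes called higher and in 31.0% of the 448 genes called lower, against 50.7% of all genes. MEFs were more than 2-fold above the 2iL-iPSC mean in 60.1% of the genes called higher, in 1.56% of those called lower and in 22.5% of all genes. The estimated fibroblast RNA was more than 50% of the excess of clone 1 in 20 of the 701 genes called higher. Among all 13134 genes tested this held in 1757, and for clone 3 the counts were 0 and 49. The 2 sets cannot be compared, since a call favours a large excess alike in both OSKM-iPSC clones. Over all genes, any small positive excess counts as well and inflates the percent. The part of fibroblast RNA in the calls was not tested beyond the subtraction above.

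**Figure D1:**
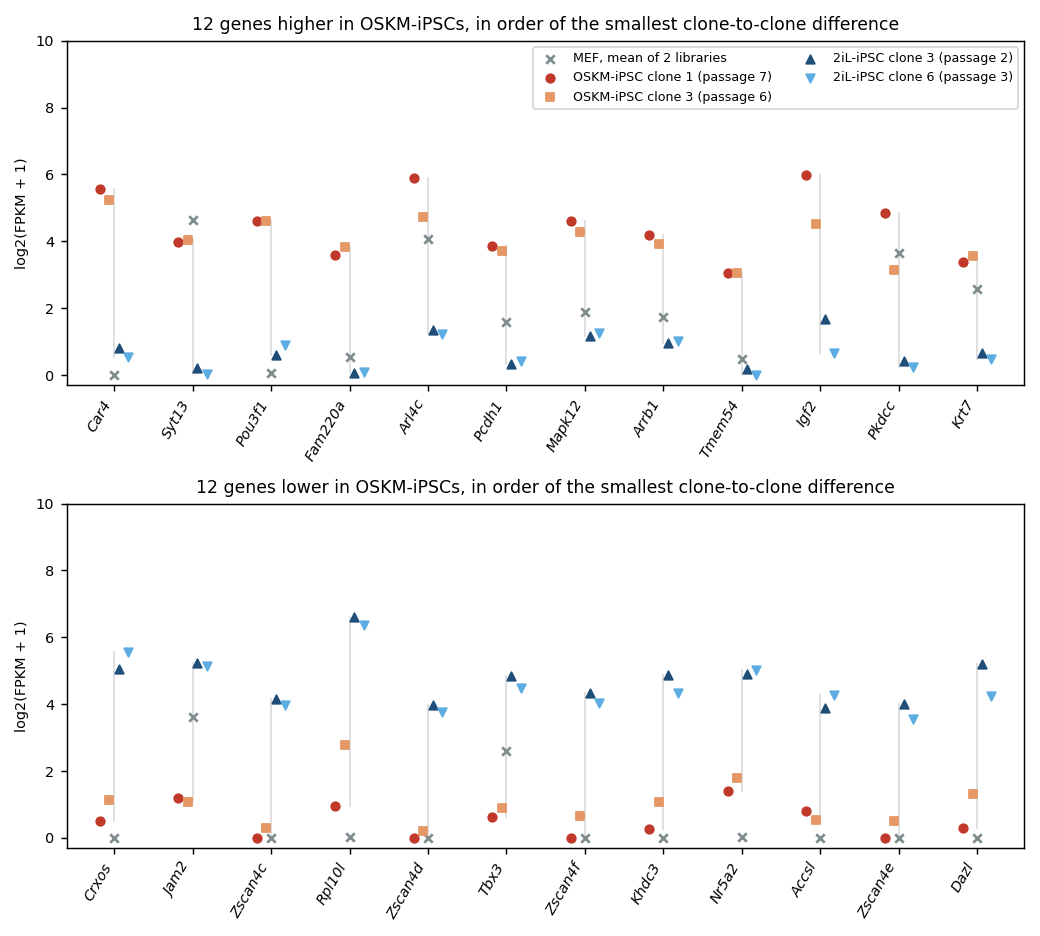
FPKM of the 24 genes with the largest separation between the media, on a log2(FPKM + 1) axis, with 1 point per clone and MEFs for reference. In each of the 12 genes higher in OSKM-iPSCs both OSKM-iPSC clones lie above both 2iL-iPSC clones, as in Car4 (46.3 and 36.4 against 0.750 and 0.442), and in each of the 12 lower genes below them, as in Jam2 (1.31 and 1.09 against 36.7 and 34.2).

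The genes named first are the 12 in each direction whose closest pair of clones differed most between the media. Car4, a membrane-anchored carbonic anhydrase, was at 46.3 and 36.4 FPKM in OSKM-iPSC clones 1 and 3, and at 0.750 and 0.442 FPKM in the 2iL-iPSC clones, a log2 difference of 4.73 (SE 0.23, adjusted p = 0.00326). Pou3f1, a POU transcription factor of the formative epiblast also known as Oct6, was at 23.2 and 23.5 against 0.525 and 0.868 FPKM (log2 difference 3.85, SE 0.22, adjusted p = 0.00452). Both genes were near 0 in MEFs, and their OSKM-iPSC values stood far above both 2iL-iPSC clones. Syt13, a synaptotagmin-family membrane protein, was at 14.9 and 15.4 against 0.152 and 0.0138 FPKM (log2 difference 3.90, SE 0.23, adjusted p = 0.00452), but it was at 23.8 FPKM in MEFs. Arl4c, a small GTPase of the ARF family, was at 57.9 and 25.4 against 1.53 and 1.32 FPKM (log2 difference 4.03, SE 0.39, adjusted p = 0.00901). The 2 OSKM-iPSC clones differed more from each other in Arl4c than in Car4, Pou3f1 or Syt13.

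The other 8 genes were the following. Pcdh1, a protocadherin, was at 13.6 and 11.97 FPKM against 0.252 and 0.349. The p38-family kinase gene Mapk12 was at 23.2 and 18.3 FPKM against 1.25 and 1.40. Arrb1, the gene of beta-arrestin 1, was at 17.4 and 14.2 FPKM against 0.947 and 1.02. In these 3 genes the log2 differences were 3.40, 3.22 and 3.07, and the groups were far apart. Krt7, a simple-epithelial keratin, was at 9.40 and 10.7 FPKM against 0.578 and 0.381 (log2 difference 2.90, SE 0.24, adjusted p = 0.00744). Tmem54, a transmembrane protein gene, was at 7.38 and 7.28 FPKM, at 0.137 in 2iL-iPSC clone 3, and listed at 0 in 2iL-iPSC clone 6. Pkdcc, a secreted tyrosine kinase gene, was at 27.7 and 7.90 FPKM against 0.342 and 0.175. Igf2, the imprinted insulin-like growth factor gene, was at 62.2 and 21.7 FPKM against 2.22 and 0.580, with 1141 in MEFs. In Igf2 the estimated fibroblast RNA was 129.8% of the excess of OSKM-iPSC clone 1, and with it taken off the log2 difference went from 4.07 to 1.16 and the call was lost (adjusted p = 0.618). Fam220a is listed under 2 overlapping gene identifiers. The 1 that the rule named was at 10.9 and 13.3 FPKM against 0.0445 and 0.0741, and the other lay in the reverse order, at 3.38 and 4.62 against 9.92 and 13.7. Their sums were 14.3 and 18.0 against 9.97 and 13.8 FPKM, so reads may be split differently between the identifiers and the call of Fam220a is uncertain.

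The 12 genes lower in OSKM-iPSCs included Tbx3 and Nr5a2 of the naive list, 4 copies of Zscan4 of the 2-cell list, and Dazl, Rpl10l and Khdc3 of the germline list, next to Crxos, Jam2 and Accsl, which are in none of the lists. Crxos, a homeobox gene, was at 0.430 and 1.18 FPKM in the OSKM-iPSC clones against 32.2 and 46.3 in the 2iL-iPSC clones (log2 difference -4.49, SE 0.30, adjusted p = 0.00528). Jam2, a junctional adhesion molecule gene, was at 1.31 and 1.09 against 36.7 and 34.2 FPKM (log2 difference -4.05, SE 0.19, adjusted p = 0.00326). Tbx3, a T-box factor of naive cells, was at 0.537 and 0.872 against 27.4 and 21.4 FPKM (log2 difference -3.89, SE 0.24, adjusted p = 0.00481). In these 3 genes the clones of each medium were close and the media far apart. Nr5a2, a nuclear receptor that can activate Pou5f1, was at 1.66 and 2.44 FPKM against 29.1 and 31.5 (log2 difference -3.37). Accsl, a gene related to plant ACC synthase, was at 0.738 and 0.459 FPKM against 13.7 and 18.6 (log2 difference -3.41). Rpl10l, an intronless copy of the ribosomal protein gene Rpl10, was at 0.922 and 5.82 FPKM against 97.0 and 81.8 (log2 difference -4.64, SE 0.57), and its reads may be shared with its close copies. Khdc3, a maternal-effect gene of the oocyte, was at 0.204 and 1.11 FPKM against 28.5 and 18.97 (log2 difference -3.93). Dazl, an RNA-binding protein of germ cells, was at 0.234 and 1.47 FPKM against 36.1 and 17.8 (log2 difference -3.92, SE 0.46, adjusted p = 0.0142). In Rpl10l, Khdc3 and Dazl OSKM-iPSC clone 1 was the lowest and clone 3 stood between it and the 2iL-iPSC clones.

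The other 4 are copies of Zscan4, a zinc-finger gene family of the 2-cell embryo that lengthens telomeres in rare stem cells. Zscan4c was listed at 0 in OSKM-iPSC clone 1, was at 0.216 FPKM in clone 3, and at 16.8 and 14.7 in the 2iL-iPSC clones. Zscan4d was listed at 0 and at 0.143 against 14.7 and 12.7 FPKM. Zscan4f was listed at 0 and at 0.582 against 19.2 and 15.5 FPKM. Zscan4e was listed at 0 and at 0.414 against 15.2 and 10.7 FPKM. The 4 copies had log2 differences of -3.92, -3.78, -3.86 and -3.53, with both OSKM-iPSC clones far below both 2iL-iPSC clones. The copies are near-identical and only uniquely mapped reads were kept, so the level of any 1 copy is uncertain.

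The promoters below show what these genes carry around their start, and how alike the Zscan4 copies are. They are from RefSeq (GRCm38.p6), run from 250 bases before to 50 after the annotated start, read 5′ to 3′ on the gene's strand, and the single capital marks the first transcribed base. Of the 24 genes named above, 17 were matched in the promoter table, and those shown are the 3 first matched in each direction.
Car4 promoter, chr11:84957504-84957803 (+): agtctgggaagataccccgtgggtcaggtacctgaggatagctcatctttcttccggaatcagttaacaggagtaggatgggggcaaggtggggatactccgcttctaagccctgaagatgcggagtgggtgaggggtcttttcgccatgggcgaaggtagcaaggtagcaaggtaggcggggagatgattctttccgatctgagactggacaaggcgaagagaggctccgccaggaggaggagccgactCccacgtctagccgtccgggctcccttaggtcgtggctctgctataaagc
Fam220a promoter, chr5:143548470-143548769 (+): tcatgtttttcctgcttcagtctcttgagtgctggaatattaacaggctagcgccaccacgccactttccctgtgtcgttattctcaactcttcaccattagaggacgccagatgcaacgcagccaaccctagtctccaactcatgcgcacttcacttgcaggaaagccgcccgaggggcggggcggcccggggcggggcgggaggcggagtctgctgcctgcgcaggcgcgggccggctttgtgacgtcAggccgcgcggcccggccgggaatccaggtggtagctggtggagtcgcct
Arl4c promoter, chr1:88702142-88702441 (-): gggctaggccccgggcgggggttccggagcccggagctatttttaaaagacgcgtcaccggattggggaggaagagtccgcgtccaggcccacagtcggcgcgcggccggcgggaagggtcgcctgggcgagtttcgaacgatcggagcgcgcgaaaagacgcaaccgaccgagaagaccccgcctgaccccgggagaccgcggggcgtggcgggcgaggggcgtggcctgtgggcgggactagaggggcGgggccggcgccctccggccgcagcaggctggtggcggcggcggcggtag
Crxos promoter, chr7:15882367-15882666 (+): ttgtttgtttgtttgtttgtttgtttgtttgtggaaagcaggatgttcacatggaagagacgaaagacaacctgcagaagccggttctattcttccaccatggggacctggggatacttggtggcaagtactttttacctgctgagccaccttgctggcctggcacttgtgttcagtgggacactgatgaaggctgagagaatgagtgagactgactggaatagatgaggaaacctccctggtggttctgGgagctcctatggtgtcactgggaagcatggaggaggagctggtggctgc
Zscan4c promoter, chr7:11005495-11005794 (+): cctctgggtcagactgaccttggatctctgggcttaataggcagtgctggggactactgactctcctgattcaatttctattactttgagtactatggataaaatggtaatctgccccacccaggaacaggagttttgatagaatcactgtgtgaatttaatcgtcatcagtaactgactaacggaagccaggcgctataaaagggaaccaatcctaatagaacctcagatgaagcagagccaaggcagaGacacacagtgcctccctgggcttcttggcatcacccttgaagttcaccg
Rpl10l promoter, chr12:66284352-66284651 (-): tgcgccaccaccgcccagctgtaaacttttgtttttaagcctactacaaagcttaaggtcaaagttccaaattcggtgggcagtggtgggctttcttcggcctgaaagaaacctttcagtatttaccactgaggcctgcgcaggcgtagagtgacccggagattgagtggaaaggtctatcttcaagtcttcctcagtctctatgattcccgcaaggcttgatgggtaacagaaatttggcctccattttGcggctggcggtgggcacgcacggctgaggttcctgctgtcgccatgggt

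None of the 6 held ATGCAAAT (the octamer of POU factors), CACGTG (the E-box of MYC), CCACACCC (of KLF factors), CATTGTT (of SOX factors), CCGGAAGT (of ETS factors) or TTCCNGGAA (of STAT factors) on either strand. Their G and C share was 57.3% in Car4, 63.0% in Fam220a, 74.0% in Arl4c, 50.3% in Crxos, 47.0% in Zscan4c and 52.0% in Rpl10l. Over all matched promoters, the median G and C share was 64.0% for genes higher in OSKM-iPSCs, 57.7% for genes lower and 61.3% for genes tested. CACGTG was in 6.96% of 532 promoters of genes higher, 8.41% of 321 of genes lower and 10.3% of 9570 of genes tested. CCGGAAGT was in 3.38%, 4.98% and 8.81%, and CCACACCC in 3.76%, 6.23% and 3.92% of the same sets. The other motifs were rare in each set. ATGCAAAT was in 1.88%, 1.56% and 1.42%, CATTGTT in 2.07%, 1.87% and 1.70%, and TTCCNGGAA in 1.32%, 1.25% and 1.24%. A match is only a match of letters in this window. For comparison with the Zscan4c promoter above, those of 2 further copies are shown, with capitals here for the bases that differ from Zscan4c after a shift.
Zscan4d promoter, chr7:11166099-11166398 (-): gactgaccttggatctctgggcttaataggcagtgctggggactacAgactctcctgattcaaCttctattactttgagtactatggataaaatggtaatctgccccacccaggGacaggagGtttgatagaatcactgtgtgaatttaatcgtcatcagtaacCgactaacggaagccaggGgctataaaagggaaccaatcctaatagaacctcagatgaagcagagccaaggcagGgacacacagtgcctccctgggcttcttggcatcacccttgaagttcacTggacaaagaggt
Zscan4f promoter, chr7:11397665-11397964 (+): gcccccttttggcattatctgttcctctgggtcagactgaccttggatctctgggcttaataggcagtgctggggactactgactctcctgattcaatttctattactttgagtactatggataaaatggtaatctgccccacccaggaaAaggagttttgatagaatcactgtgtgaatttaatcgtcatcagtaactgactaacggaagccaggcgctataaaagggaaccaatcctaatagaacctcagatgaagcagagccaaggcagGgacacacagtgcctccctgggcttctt

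The Zscan4d window was identical to that of Zscan4c at 281 of 289 overlapping bases (97.2%), and the Zscan4f window at 275 of 277 (99.3%). They thus differed at 8 and 2 bases.

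Genes of naive pluripotency were lower in OSKM-iPSCs nearly throughout. Of 15 tested, 12 were called lower and 0 higher, with a median log2 difference of -2.54, against 0.07 over all genes. The summed FPKM of the list was 282.7 and 430.4 in the OSKM-iPSC clones and 1283 and 1355 in the 2iL-iPSC clones. Besides Tbx3 and Nr5a2, Tfcp2l1, a LIF-responsive factor of naive cells, was at 6.00 and 7.24 against 65.6 and 56.0 FPKM (log2 difference -3.02, SE 0.18, adjusted p = 0.00452). Prdm14, which restrains DNA methylation and FGF signalling, was at 0.382 and 0.841 against 9.94 and 13.7 FPKM (log2 difference -2.99). Esrrb, an orphan nuclear receptor of the naive network, was at 23.1 and 54.1 against 216 and 245 FPKM (log2 difference -2.66, SE 0.38, adjusted p = 0.0198). Klf2 was at 9.68 and 24.2 against 86.6 and 103 FPKM, and its log2 difference was -2.54. Klf5, the other Kruppel-like factor of the list, was at 5.88 and 3.39 against 30.9 and 28.7 FPKM (log2 difference -2.49). Nanog, a homeodomain factor at the core of the network, was at 37.0 and 55.0 against 195 and 207 FPKM (log2 difference -2.13, SE 0.21, adjusted p = 0.00909). Both OSKM-iPSC clones lay below both 2iL-iPSC clones in these 6 genes and in 13 of the 15 (26.1% of all genes tested had this order, and 36.5% the reverse). In Esrrb, Klf2 and Nanog clone 1 was the lower of the 2 OSKM-iPSC clones.

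The 3 naive genes without a call behaved unlike each other. Zfp42, also known as Rex1, was at 11.1 in OSKM-iPSC clone 1 and 54.9 in clone 3 against 177 and 196 FPKM, a log2 difference of -2.85 that missed the threshold with the spread between the clones (SE 0.67, adjusted p = 0.0561). Dppa3, a maternal factor that protects imprints, was at 25.5 and 51.8 against 43.1 and 34.6 FPKM, so the groups overlapped. Tfap2c, an AP-2 factor, was at 16.8 and 32.3 against 15.1 and 16.3 FPKM (adjusted p = 0.293). Tet2, Fgf4, Tcl1 and Zfp57 were the other called members, with log2 differences of -1.53, -1.48, -2.54 and -1.34. Without OSKM-iPSC clone 1 or clone 3, 13 members were lower, and with fibroblast RNA taken off 11 were.

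**Figure D2:**
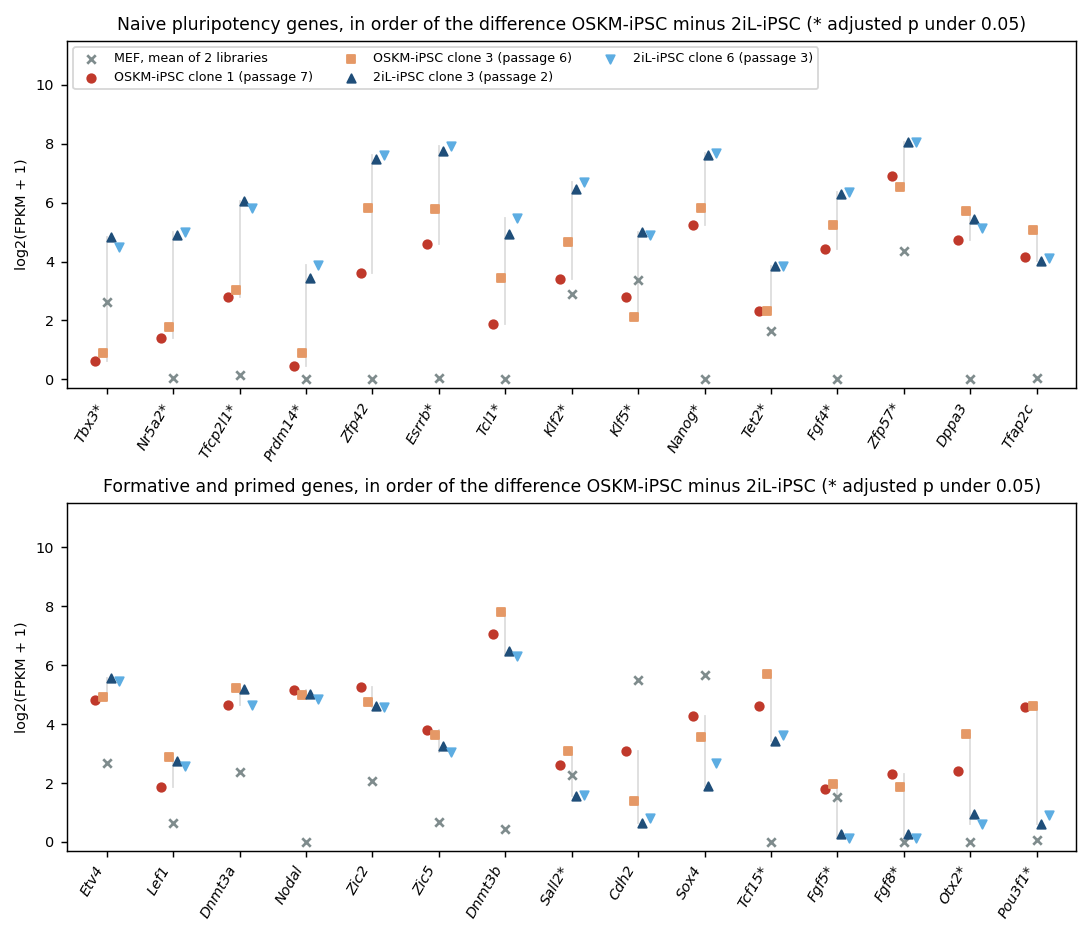
FPKM of pluripotency genes in each clone on a log2(FPKM + 1) axis, with naive genes above, formative and primed genes below, crosses for the MEF mean and asterisks for called genes. Most naive genes lie lower in both OSKM-iPSC clones (Nanog 37.0 and 55.0 against 195 and 207), Dppa3 and Tfap2c do not, and formative genes such as Pou3f1 lie higher (23.2 and 23.5 against 0.525 and 0.868).

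Genes of pluripotency at large were mixed. Of 12 tested, 2 were called higher and 3 lower (median log2 difference -0.66). Epcam, an epithelial adhesion protein of pluripotent cells, was at 143 and 138 against 43.4 and 52.5 FPKM (log2 difference 1.54, SE 0.15, adjusted p = 0.00914). Lin28a, which blocks let-7 maturation, was at 135 and 130 against 79.3 and 79.2 FPKM (log2 difference 0.73, adjusted p = 0.0318). Sall4, a zinc-finger factor of the core network, was at 29.7 and 31.7 against 61.9 and 57.2 FPKM (log2 difference -0.93). Tdgf1, the Nodal co-receptor, was at 152 and 123 against 261 and 304 FPKM (log2 difference -1.04). Trim28, the corepressor that works with Zfp57 at imprints and at retroelements, was at 305 and 345 against 575 and 606 FPKM (log2 difference -0.86). In each of these 5 the groups were apart and the clones of a medium close. Dppa5a was at 178 and 575 against 1083 and 1314 FPKM without a call (adjusted p = 0.0786), Utf1 at 142 and 244 against 140 and 142, and L1td1 at 238 and 190 against 215 and 204. Without OSKM-iPSC clone 1 the calls of Lin28a (adjusted p = 0.0773), Sall4 (adjusted p = 0.0589) and Trim28 (adjusted p = 0.0823) were lost, and without clone 3 those of Lin28a (adjusted p = 0.0527), Tdgf1 (adjusted p = 0.0631) and Trim28 (adjusted p = 0.0512).

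Of the 4 factors on the cassette, 1 was called. Myc, as the sum of transgene and endogenous transcripts, was at 71.9 and 42.4 against 16.7 and 16.1 FPKM (log2 difference 1.69, SE 0.26, adjusted p = 0.0253). Pou5f1 was at 437 and 513 against 668 and 811 FPKM (log2 difference -0.64, adjusted p = 0.0713). Sox2 was at 66.4 and 93.2 against 118 and 113 FPKM, and its log2 difference of -0.55 had an adjusted p of 0.13. Klf4 was at 26.1 and 14.2 against 28.6 and 22.4 FPKM (adjusted p = 0.442). Both OSKM-iPSC clones lay above both 2iL-iPSC clones in Myc and below them in Pou5f1 and Sox2, and the media overlapped in Klf4. Of all genes tested, 36.5% had the order of Myc and 26.1% that of Pou5f1 and Sox2. The order alone therefore says little about Pou5f1 and Sox2, which were not called.

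Of 15 tested genes of formative and primed pluripotency, 6 were called higher and 0 lower (median log2 difference 1.27), with Pou3f1 the farthest apart. Otx2, the homeodomain factor that drives exit from the naive state, was at 4.33 and 11.7 against 0.910 and 0.526 FPKM (log2 difference 2.27, SE 0.44, adjusted p = 0.0393). Fgf5, a classical epiblast marker, was at 2.47 and 2.95 against 0.216 and 0.0852 FPKM (log2 difference 1.69). Fgf8, another FGF ligand, was at 3.93 and 2.63 against 0.214 and 0.0853 FPKM (log2 difference 1.88). Otx2, Fgf5 and Fgf8 were higher in both OSKM-iPSC clones, at levels far under that of Pou3f1. Tcf15 and Sall2 were the other called members (log2 differences 1.63 and 1.27). Dnmt3b, a de novo DNA methyltransferase, was at 133 and 222 against 87.8 and 78.2 FPKM without a call (adjusted p = 0.0614). Nodal was at 35.01 and 30.7 against 31.4 and 27.9 FPKM, and Etv4 at 27.2 and 29.5 against 46.4 and 42.8, neither called. With fibroblast RNA taken off, or under quantile normalization, 3 members were called higher, and without OSKM-iPSC clone 1 there were 7.

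Genes downstream of the 3 components of 2iL were examined next. Of 19 ERK feedback and early-response genes, 4 were called higher and 1 lower (median 0.28), against 5.34% and 3.41% of all genes. Under median-ratio scaling 3 were higher and 3 lower, and the median was 0.01 without OSKM-iPSC clone 1 and 0.87 without clone 3. Dusp4, an ERK phosphatase, was at 14.7 and 7.69 against 0.918 and 0.920 FPKM (log2 difference 2.60, SE 0.33, adjusted p = 0.0156), with 33.5 in MEFs. Egr1, an immediate-early factor, was at 5.99 and 4.56 FPKM in OSKM-iPSCs, at 0.0878 in 2iL-iPSC clone 3, and listed at 0 in clone 6, with 25.5 in MEFs. Dusp6, the cytoplasmic ERK phosphatase, was at 20.3 and 24.8 against 10.1 and 8.35 FPKM (log2 difference 1.20), with 20.8 in MEFs. These 3 and Spry1 (log2 difference 1.03) were the calls higher, and OSKM-iPSCs lay above 2iL-iPSCs in both clones. Spry2, also a feedback inhibitor, went the other way, at 18.7 and 15.2 against 30.8 and 32.8 FPKM (log2 difference -0.87). Etv5 was at 71.8 and 73.8 against 108 and 110 FPKM (adjusted p = 0.052), Ccnd1 at 57.7 and 29.9 against 29.7 and 32.7, and Ier2 at 42.1 and 47.6 against 50.5 and 59.6, none of them called. Spry1 lost its call without OSKM-iPSC clone 1 (adjusted p = 0.06), without clone 3 (adjusted p = 0.0757) and with fibroblast RNA taken off (log2 difference 0.98, adjusted p = 0.0661), and without clone 3 so did Dusp6 (adjusted p = 0.0592) and Spry2 (adjusted p = 0.0643).

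WNT target genes were lower or not called. Of 12 tested, 3 were lower and 0 higher (median -0.03). Cdx1, a caudal-type homeobox factor, was at 1.36 and 0.301 against 18.8 and 15.9 FPKM (log2 difference -3.38, SE 0.33, adjusted p = 0.00904). Notum, a secreted enzyme that inactivates WNT ligands, was at 2.48 and 1.77 against 25.2 and 23.03 FPKM (log2 difference -3.01). Axin2, the standard feedback target, was at 5.25 and 2.13 against 15.7 and 12.7 FPKM (log2 difference -1.77, adjusted p = 0.0422), and it lost its call without OSKM-iPSC clone 3 (log2 difference -1.27, adjusted p = 0.0514) and with fibroblast RNA taken off (log2 difference -1.79, adjusted p = 0.0518). The 2iL-iPSCs were high in these 3. Tcf7 and Tcf7l1, WNT effectors themselves, were at 20.9 and 21.8 against 17.8 and 16.4, and at 39.4 and 32.3 against 38.1 and 38.0 FPKM, not called.

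Of 15 genes of the LIF and STAT3 axis, 5 were lower and 0 higher (median -0.37). The receptor gene Lifr was at 1.78 and 1.84 against 7.18 and 6.54 FPKM (log2 difference -1.48). Stat3, its transducer, was at 9.92 and 6.75 against 28.7 and 26.4 FPKM (log2 difference -1.63, SE 0.22, adjusted p = 0.0176). The feedback inhibitor Socs3 was at 6.72 and 2.82 against 42.9 and 36.2 FPKM (log2 difference -2.90, SE 0.35, adjusted p = 0.0148). Receptor, transducer and feedback target were all low in both OSKM-iPSC clones, as were Bcl3 (log2 difference -2.37) and Tfcp2l1. Other targets were not called, among them Pim1 at 58.3 and 48.9 against 34.7 and 32.5 FPKM (adjusted p = 0.0602), Pim3 at 29.6 and 40.9 against 37.7 and 38.0, and Socs2 at 30.4 and 36.7 against 27.5 and 31.5. Of the 15 genes, 8 lay lower in both OSKM-iPSC clones and 4 higher (26.1% and 36.5% of all genes did). Next to Pim1, the 4 were Jak1 (18.0 and 14.0 against 10.1 and 9.38 FPKM), Gadd45g (12.3 and 35.8 against 6.09 and 5.44) and Junb (21.3 and 4.77 against 3.93 and 2.72), none called.

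TGF-beta and BMP genes had 3 calls higher and 0 lower among 17 tested (median 0.84), against 5.34% and 3.41% of all genes. Lefty1, a secreted Nodal inhibitor, was at 290 and 158 against 20.2 and 36.8 FPKM (log2 difference 2.92, SE 0.38, adjusted p = 0.0168). Id2, an inhibitor of bHLH factors and a BMP target, was at 12.99 and 11.6 against 1.46 and 0.679 FPKM (log2 difference 2.71), with 61.6 in MEFs. Skil, a SMAD corepressor, was at 22.7 and 23.5 against 7.91 and 9.001 FPKM (log2 difference 1.35). Lefty2, the neighbour and close relative of Lefty1, was at 171 in OSKM-iPSC clone 1 but at 44.6 in clone 3, inside the 2iL-iPSC values of 19.2 and 45.9 FPKM. Ccn2 was likewise high in clone 1 only, at 54.1 against 16.7 in clone 3 and 14.2 and 11.51 in 2iL-iPSCs, with 228 in MEFs. The list had 3 calls higher and a median of 0.20 without OSKM-iPSC clone 1, and 6 calls and a median of 1.33 without clone 3.

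**Figure D3:**
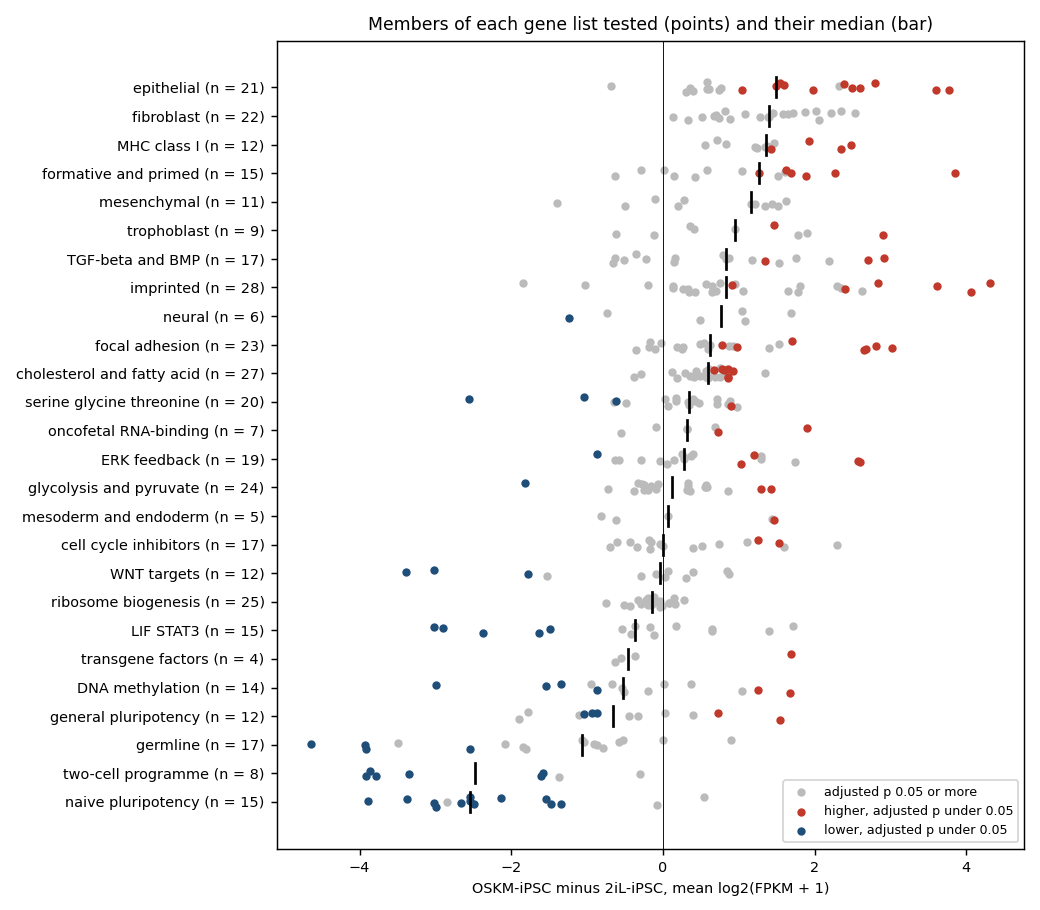
Log2 differences between OSKM-iPSCs and 2iL-iPSCs for the members of each gene list, with 1 point per gene, called genes in red (higher) or blue (lower) and the median as a bar. The medians run from -2.54 (naive pluripotency) and -2.48 (2-cell programme) to 1.496 (epithelial genes), and the median of all genes is 0.07.

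Epithelial genes were the list with most calls higher. Of 21 tested, 11 were higher and 0 lower (median 1.496), and both OSKM-iPSC clones were above both 2iL-iPSC clones in 19, against 36.5% of all genes tested. The summed FPKM was 1316 and 630.2 against 314.8 and 271.9. Krt8, a keratin of simple epithelia, was at 339 and 91.3 against 15.7 and 9.08 FPKM (log2 difference 3.77, SE 0.61, adjusted p = 0.0263). Krt18, its partner, was at 256 and 46.7 against 11.4 and 5.70 FPKM (log2 difference 3.60, SE 0.78, adjusted p = 0.0482). Krt19 was at 35.4 and 14.3 against 2.75 and 2.05 FPKM (log2 difference 2.80), with 25.5 in MEFs. All 3 keratins were highest in OSKM-iPSC clone 1, and Krt8 and Krt18 were at only 3.08 and 9.14 FPKM in MEFs. Claudins, the strand proteins of tight junctions, followed the same order. Cldn4 was at 115 and 86.7 against 23.2 and 26.1 FPKM (log2 difference 1.97, adjusted p = 0.00888), and Cldn3 at 18.9 and 11.4 against 1.19 and 2.09 (log2 difference 2.60, adjusted p = 0.0148). Cldn6 and Cldn7 had log2 differences of 2.39 and 2.49, and these 4 claudins were at most 0.197 FPKM in MEFs. The junction genes Tjp1 and Marveld2, the splicing factor gene Esrp1 and the epithelial factor gene Grhl2 were the other calls, with log2 differences of 1.04, 1.59, 1.55 and 1.496. Cdh1, the gene of E-cadherin, was at 129 and 104 against 95.8 and 79.5 FPKM without a call (adjusted p = 0.192), as was Jup at 77.1 and 34.9 against 35.6 and 31.7. Without OSKM-iPSC clone 1, 8 members were higher, and with fibroblast RNA taken off 9 were. Krt18 kept its log2 difference of 3.60 but lost its call with fibroblast RNA taken off (adjusted p = 0.0631), under median-ratio scaling (adjusted p = 0.0509) and under quantile normalization (adjusted p = 0.059).

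No fibroblast gene of 22 tested was called by limma (median 1.40), and OSKM-iPSC clone 1 alone was high in most. Acta2, smooth muscle actin, was at 80.4 FPKM in that clone, at 0.709 in clone 3 and at 1.43 and 1.23 in 2iL-iPSCs. Sparc, a matrix glycoprotein gene, was at 216 and 54.3 against 106 and 93.1 FPKM, and Fstl1 at 88.9 and 17.4 against 20.4 and 26.6. Clone 1 was above clone 3 in 25 of the 26 genes, against 50.7% of all genes tested. Clone 3 was above both 2iL-iPSC clones in 11 of the 26, though not in Acta2, Sparc or Fstl1, and the share over all genes was not counted. The median was -0.20 without clone 1 (9 genes tested) and 0.02 with fibroblast RNA taken off. The value of 0.02 is no test, since the share taken off was estimated from genes of this same list. The genes no longer tested without clone 1 had passed the FPKM limit only through that clone. Their order, and so part of the median of 1.40 over 22 genes, was largely set in advance. Without clone 3, 19 fibroblast genes were called higher. Mesenchymal genes (11 tested) had 0 calls by limma with a median of 1.17, which was -0.40 without OSKM-iPSC clone 1 (7 genes tested, 1 lower), 1.97 without clone 3 (6 higher) and -0.09 with fibroblast RNA taken off. Vim, the intermediate filament of mesenchyme, was at 218 FPKM in OSKM-iPSC clone 1, at 29.2 in clone 3 and at 205 and 221 in 2iL-iPSCs, so clone 3 stood alone as low. Fn1, fibronectin, was at 187 and 80.9 against 101 and 113 FPKM, and Itga5, its receptor subunit, at 24.6 and 15.5 against 22.2 and 20.1.

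**Figure D4:**
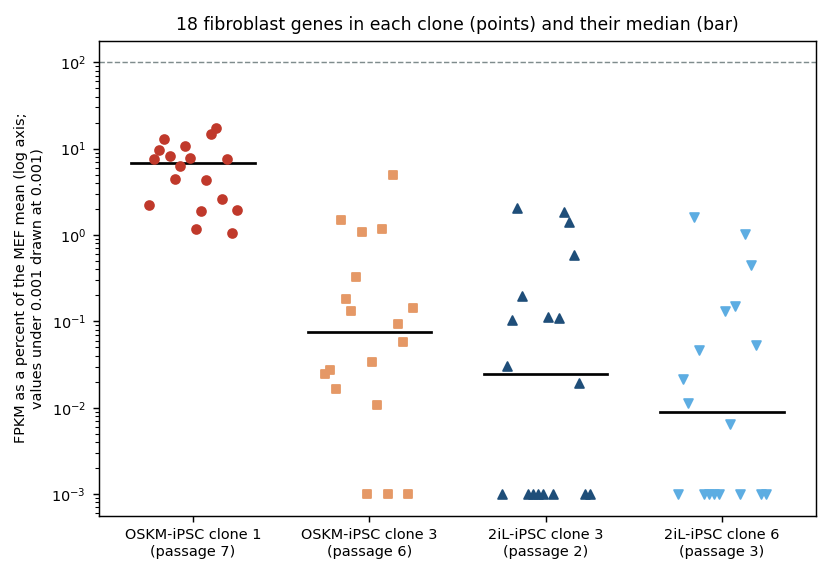
Level of fibroblast genes in each clone as a percent of the MEF level, on a log axis on which values under 0.001 are drawn at 0.001, with 1 point per gene and a bar at the median of 18 genes. OSKM-iPSC clone 1 has a median of 6.91%, whereas clone 3 (0.0749%) and the 2iL-iPSC clones (0.0247% and 0.0089%) lie far below it.

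Focal adhesion genes had 7 calls higher and 0 lower among 23 tested (median 0.62), against 5.34% and 3.41% of all genes. OSKM-iPSC clone 1 was above clone 3 in all 24 members, against 50.7% of all genes tested. Flnc, an actin-crosslinking filamin, was at 23.3 and 9.96 against 1.19 and 0.832 FPKM (log2 difference 3.02, SE 0.40, adjusted p = 0.0174), with 75.4 in MEFs. Parva, which links integrins to actin, was at 21.5 and 5.46 against 0.869 and 0.574 FPKM (log2 difference 2.81, adjusted p = 0.0438), with 65.6 in MEFs. Zyx, zyxin, was at 38.9 and 20.6 against 4.85 and 2.61 FPKM (log2 difference 2.68), with 170 in MEFs. In each of these 3 genes clone 1 was the highest and clone 3 lay above both 2iL-iPSC clones. All 3 kept their calls with fibroblast RNA taken off, and its part in them was not tested further. Itga3, a laminin-binding integrin, was at 71.4 and 26.0 against 6.61 and 5.52 FPKM (log2 difference 2.65), with only 14.1 in MEFs. Bcar1, Itga6 and Ptk2 had log2 differences of 1.71, 0.97 and 0.78. Itgb1 was at 126 and 56.0 against 30.2 and 26.8 FPKM without a call (adjusted p = 0.06), and Actn1 and Actn4 overlapped between the media, Actn1 at 111 and 56.3 against 65.8 and 72.4 and Actn4 at 187 and 167 against 239 and 169. With fibroblast RNA taken off 7 were called, without OSKM-iPSC clone 1 there were 5 and without clone 3 there were 11.

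Imprinted genes were higher in OSKM-iPSCs as far as they were called, 6 of 28 tested, with 0 lower (median 0.83). H19 and Igf2 are neighbours on chromosome 7 (H19 at 142575529-142578143, Igf2 at 142650766-142666816, GRCm38) and are expressed from opposite parental alleles. H19, a noncoding RNA, was at 337 and 917 against 44.5 and 16.1 FPKM (log2 difference 4.32, SE 0.61, adjusted p = 0.0195), with 1959 in MEFs. OSKM-iPSC clone 3 had the highest H19 level of the 4 clones. The call of H19 was lost with fibroblast RNA taken off (log2 difference 3.96, adjusted p = 0.0537) and without OSKM-iPSC clone 3 (log2 difference 3.60, adjusted p = 0.0588). Peg10 and Sgce are neighbours on chromosome 6 (Peg10 at 4747306-4760517, Sgce at 4674350-4747207, on opposite strands). Peg10, a retrotransposon-derived gene of the placenta, was at 172 and 254 against 26.7 and 9.66 FPKM (log2 difference 3.61, SE 0.46, adjusted p = 0.0156), with 18.1 in MEFs. Sgce, epsilon-sarcoglycan, was at 18.6 and 10.3 against 1.68 and 0.618 FPKM (log2 difference 2.84). Phlda2, a placental growth inhibitor, was at 59.4 and 60.03 against 8.66 and 12.6 FPKM (log2 difference 2.41, adjusted p = 0.00752), with 0.680 in MEFs. Both OSKM-iPSC clones were above both 2iL-iPSC clones in 18 of the 28 genes (36.5% of all genes). Slc38a4, an amino acid transporter gene, was also called (log2 difference 0.92). The genes of the Dlk1-Dio3 cluster were not called, with Meg3 at 74.5 and 146 against 83.9 and 89.7 FPKM and Rian at 116 and 218 against 131 and 121, and nor was Mest at 80.5 and 95.1 against 72.2 and 58.6. With fibroblast RNA taken off 4 were called, without clone 3 there were 10, and Peg10 lost its call without clone 3 (adjusted p = 0.0638).

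Genes that write, erase or guard DNA methylation were mixed, with 2 of 14 called higher and 4 lower (median -0.53). Gadd45a, linked to DNA repair and demethylation, was at 40.5 and 44.8 against 13.8 and 11.6 FPKM (log2 difference 1.67, adjusted p = 0.00946). Tet3, a methylcytosine dioxygenase, was at 3.54 and 2.85 against 0.887 and 0.617 FPKM (log2 difference 1.26, adjusted p = 0.0472). Tet2, of the same family, was at 3.99 and 3.95 against 13.3 and 13.5 FPKM (log2 difference -1.53, SE 0.18, adjusted p = 0.0148). Zfp57, which binds methylated imprints, was at 118 and 92.3 against 268 and 264 FPKM (log2 difference -1.34). Tet2 and Tet3 thus stood in opposite order, each with close clones. Dnmt3l was at 40.6 in OSKM-iPSC clone 1 and 163 in clone 3 against 144 and 94.5 FPKM, and Uhrf1 at 123 and 148 against 209 and 222 (adjusted p = 0.0511). The call of Tet3 was lost without OSKM-iPSC clone 1 (adjusted p = 0.078), with fibroblast RNA taken off (log2 difference 1.22, adjusted p = 0.0507) and under both scalings (adjusted p = 0.0518 and 0.0621).

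Of 8 genes of the 2-cell programme tested, 6 were lower and 0 higher (median -2.48). All 8 lay lower in both OSKM-iPSC clones, and 26.1% of all genes did. The 2 cannot be compared, since all but Eif1a were under 1 FPKM in both OSKM-iPSC clones. These genes passed the FPKM limit only through the 2iL-iPSCs, which largely set their order in advance. Eif1a was at 67.243 FPKM in OSKM-iPSC clone 1 against 67.244 in 2iL-iPSC clone 6. Next to the Zscan4 copies already given, Zscan4a was at 0.129 and 0.475 against 11.46 and 12.9 FPKM. Usp17lc was listed at 0 in both OSKM-iPSC clones and was at 2.56 and 1.60 in 2iL-iPSCs. Gm4340 was listed at 0 and at 0.106 against 2.44 and 1.87 FPKM. Each is from a family of near-identical copies, and 9 of the 13 listed members were at 0 in OSKM-iPSC clone 1, 3 in clone 3 and 0 in the 2iL-iPSC clones. Germline genes gave 4 lower and 0 higher of 17 (median -1.07). Dazl, Rpl10l and Khdc3 were given above, and Ooep, a maternal-effect gene, was at 0.904 and 5.55 against 19.2 and 20.01 FPKM (log2 difference -2.54, adjusted p = 0.0497). Fkbp6, a meiotic co-chaperone, was at 0.0730 and 8.22 against 37.1 and 31.8 FPKM (adjusted p = 0.0746). The meiotic genes Hormad1 and Syce1 were at 0.352 and 4.11 against 10.3 and 6.48 and at 0.447 and 2.99 against 9.45 and 8.89. OSKM-iPSC clone 3 exceeded clone 1 in 21 of the 23 germline genes, while clone 1 was above clone 3 in 50.7% of all genes tested. Without clone 1, 6 germline genes were lower, and without clone 3 there were 9. Ooep kept its difference but lost its call with fibroblast RNA taken off (log2 difference -2.54, adjusted p = 0.0645) and under quantile normalization (log2 difference -2.65, adjusted p = 0.0524).

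Of 24 genes of glycolysis and pyruvate use, 2 were higher and 1 lower (median 0.13), shares near those of all genes (5.34% and 3.41%). Slc2a1, the glucose transporter GLUT1, was at 226 and 141 against 79.1 and 66.4 FPKM (log2 difference 1.29, adjusted p = 0.0379). Slc16a3, a lactate exporter, was at 39.0 and 42.9 against 12.8 and 16.8 FPKM (log2 difference 1.42). Pfkp, a phosphofructokinase subunit, was at 14.1 and 17.6 against 59.2 and 57.6 FPKM (log2 difference -1.82, SE 0.17, adjusted p = 0.00823). Of the genes not called, Gapdh was at 2291 and 2303 against 2442 and 3150 FPKM, Pkm at 1014 and 1075 against 1012 and 1229 and Eno1 at 1277 and 1132 against 751 and 880. Of 20 genes of serine, glycine and threonine use, 1 was higher and 3 lower (median 0.34), against the same 5.34% and 3.41%. Tdh, threonine dehydrogenase, an enzyme on which mouse ESCs are known to depend, was at 77.0 and 42.7 against 345 and 342 FPKM (log2 difference -2.56, SE 0.28, adjusted p = 0.0115). Amt and Gcsh of the glycine cleavage system were at 33.3 and 37.0 against 64.8 and 83.3, and at 66.1 and 69.8 against 101 and 109 FPKM. Mthfd2, a mitochondrial folate enzyme gene, was at 65.0 and 64.1 against 29.1 and 40.4 FPKM. Without OSKM-iPSC clone 1, Slc2a1 (adjusted p = 0.0634), Amt (adjusted p = 0.0756), Gcsh (adjusted p = 0.114) and Mthfd2 (adjusted p = 0.11) lost their calls, and without clone 3 Amt (adjusted p = 0.0605), Gcsh (adjusted p = 0.0716) and Mthfd2 (adjusted p = 0.106) did.

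Of 27 cholesterol and fatty acid genes, 7 were called higher and 0 lower (median 0.60, range -0.38 to 1.35), with both OSKM-iPSC clones above both 2iL-iPSC clones in 22 (36.5% of all genes). Lss, which closes the sterol ring, was at 25.1 and 28.3 against 11.6 and 15.8 FPKM (log2 difference 0.92). Msmo1, a sterol demethylating oxidase, was at 70.6 and 55.5 against 32.9 and 35.04 FPKM (log2 difference 0.86). Acaca, which makes malonyl-CoA, was at 19.5 and 19.3 against 10.6 and 9.97 FPKM (log2 difference 0.86). Fads2, a fatty acid desaturase, was at 53.8 and 60.2 against 27.7 and 34.2 FPKM (log2 difference 0.86), and Hmgcs1 and Sqle were among the other calls (log2 differences 0.78 and 0.81). Of the genes not called, Scd2 was at 213 and 142 against 117 and 113 FPKM, Fdps at 203 and 198 against 126 and 174, and Acly at 102 and 116 against 135 and 149. This count was 0 without OSKM-iPSC clone 1, 4 without clone 3, 4 with fibroblast RNA taken off, 2 under median-ratio scaling and 0 by limma without trend, with all 27 tested in each.

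MHC class I genes, which present peptides and are low in naive stem cells, had 4 calls higher and 0 lower among 12 tested (median 1.36). All 12 lay higher in both OSKM-iPSC clones (36.5% of all genes did). In Tap2, Psmb8, Psmb9, H2-Q7 and Erap1 this order was largely set in advance, since they passed the FPKM limit only through OSKM-iPSCs. H2-K1 was at 85.8 and 35.5 against 9.47 and 8.81 FPKM (log2 difference 2.47, SE 0.40, adjusted p = 0.0261), with 8.87 in MEFs. B2m, the light chain, was at 65.4 and 22.4 against 6.51 and 6.96 FPKM (log2 difference 2.35, adjusted p = 0.0414), with 487 in MEFs, and the estimated fibroblast RNA was 57.4% of the excess of clone 1. Tap1, a peptide transporter subunit, was at 5.45 and 5.65 against 1.15 and 0.388 FPKM (log2 difference 1.92). H2-Q4 was at 8.95 and 5.28 against 2.09 and 1.80 FPKM (log2 difference 1.43), and reads of H2-Q genes may be shared between near-identical copies. H2-D1, Tapbp and Psmb10 were not called, at 20.7 and 10.2 against 5.32 and 4.98, 26.3 and 14.0 against 12.6 and 8.57, and 19.8 and 18.4 against 12.9 and 12.5 FPKM. Without OSKM-iPSC clone 1, 2 were called and Tap1 (adjusted p = 0.0537) and H2-Q4 (adjusted p = 0.0732) were lost, without clone 3 there were 8 calls without Tap1 (adjusted p = 0.0564), and with fibroblast RNA taken off there were 4 without H2-Q4 (adjusted p = 0.0548).

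Of 17 cell cycle genes, 2 were higher and 0 lower (median 0.00). Cdkn2a, the locus of p16INK4a and p19ARF, was at 18.5 and 25.7 against 7.68 and 9.53 FPKM (log2 difference 1.25, adjusted p = 0.0337), with 28.9 in MEFs. Cdkn2b, its neighbour coding for p15INK4b, was at 6.81 and 5.004 against 1.11 and 1.64 FPKM (log2 difference 1.53, adjusted p = 0.0313), with 29.9 in MEFs. Both lay higher in each OSKM-iPSC clone, while Trp53 was at 159 and 149 against 210 and 204 FPKM, Cdk4 at 230.02 and 263 against 267 and 293, and Ccne1 at 79.0 and 95.1 against 113 and 107, none called. The call of Cdkn2a was lost without clone 3 (adjusted p = 0.0675) and with fibroblast RNA taken off (log2 difference 1.17, adjusted p = 0.0624), and that of Cdkn2b without clone 1 (adjusted p = 0.0644). Ribosome biogenesis genes had 0 calls by limma among 25 (median -0.14), as in Npm1 at 1643 and 1733 against 2081 and 1788 FPKM, Ncl at 321 and 308 against 375 and 268, and Nop56 at 250.3 and 209.6 against 259 and 216. Of 7 oncofetal genes, Lin28a and Lin28b were higher, with Lin28b at 21.7 and 9.64 against 2.47 and 4.00 FPKM (log2 difference 1.90, adjusted p = 0.0471), lost without clone 1 (adjusted p = 0.0776). Hmga1 was at 393 and 440.0 against 445 and 439 FPKM, Igf2bp1 at 46.4 and 58.4 against 87.7 and 66.9 and Igf2bp2 at 53.1 and 30.04 against 28.4 and 21.1, none of these called.

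Genes of committed lineages were mostly too low to test. Of 14 neural genes 8 were under the FPKM limit, and of the 6 tested 1 was called, lower. Tubb3, a neuronal tubulin, was at 26.9 and 18.8 against 45.7 and 65.1 FPKM (log2 difference -1.24, adjusted p = 0.0422), and it was lost without either OSKM-iPSC clone (adjusted p = 0.0519 without clone 1, 0.102 without clone 3) and with fibroblast RNA taken off (log2 difference -1.26, adjusted p = 0.0504). Nes, nestin, was at 25.3 in OSKM-iPSC clone 1 but at 5.38 in clone 3, against 3.00 and 3.01 FPKM. Stmn2 was at 134 and 31.0 against 100.4 and 119 FPKM, and Ncam1 at 5.93 and 2.95 against 2.44 and 3.07. Of 18 mesoderm and endoderm genes 13 were under the limit. Hand1, a bHLH factor also of the trophoblast, was at 1.34 and 2.24 FPKM and listed at 0 in both 2iL-iPSC clones, with an adjusted p of 0.0497 that was lost under median-ratio scaling (0.0515) and quantile normalization (0.0608). Dab2 was high in OSKM-iPSC clone 1 only, at 7.08 against 0.837, 0.882 and 0.0672 FPKM, with 36.4 in MEFs, and Eomes was at 1.89 and 1.34 against 3.15 and 2.86. Of 9 trophoblast genes tested, Hand1 and Krt7 were the 2 called. Ascl2 was at 5.44 in clone 1 and 25.0 in clone 3 against 3.68 and 2.01 FPKM, and Tead4 at 13.4 and 6.05 against 9.27 and 10.7, neither called.

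The largest differences between the clones of 1 medium are given as a description, with no test. OSKM-iPSC clone 1 exceeded clone 3 most in Acta2, Col1a2 (36.1 against 0.130 FPKM), Anxa1 (50.2 against 0.823), Col1a1 (28.1 against 0.114), Scand1 (24.5, listed at 0 in clone 3), S100a6 (127 against 6.69) and Cavin1 (47.6 against 2.02), among others. Most are fibroblast genes with MEF levels from 243 to 1797 FPKM, but Scand1 was at 6.68 FPKM in MEFs. In the other direction, Stra8, a retinoic acid target of germ cells that enter meiosis, was at 0.306 FPKM in clone 1 and 19.7 in clone 3, and Zfp990, a zinc-finger gene, at 0.419 and 16.9. Stra8 in clone 3 was between the 2iL-iPSC values of 26.9 and 14.0 FPKM, while Zfp990 was lower than both (59.3 and 42.6). Serpina3m, a protease inhibitor gene, was at 2.32 and 30.1 FPKM against 7.24 and 4.64, highest in clone 3. Mt2, mt-Atp8 and Pcdhga8 were listed at 0 in clone 1, which may be failed estimates, and Eno1b, a near-copy of Eno1, and Gemin4, listed at 0.764 and 23.9 FPKM in the OSKM-iPSC clones and at 33.5 and 0.672 in the 2iL-iPSC clones, were the rest. Between the 2iL-iPSC clones, Peg3, an imprinted gene, was at 20.3 and 5.34 FPKM, Fen1, a flap endonuclease of DNA replication, at 21.001 and 68.2, and Mfap5, a microfibril gene, at 5.26 and 0.861. Many of the others of that pair were listed at 0 in 1 clone, as was mt-Atp6 at 2640 and 0.

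Whether the medium acts alike in iPSCs and ESCs was tested by the difference between the iPSC contrast and the mean contrast of OSKM-ESCs against 2iL-ESCs over 3 days, in 16 libraries. Of 14075 genes, 2006 (14.3%) differed between these iPSC clones and ESC cultures (limma interaction, adjusted p under 0.05). The paper describes a single ESC line, so the ESC libraries are cultures of that line on 3 days, and the fit treated them as independent. The interaction p-values therefore measure the spread between these cultures and clones. They do not speak for iPSCs and ESCs as cell types. Of the genes called in iPSCs, 260 of 701 higher and 156 of 448 lower differed so. The ESC contrast had the same sign in 664 of the 701 genes higher (94.7%), and was positive in 15 of the 448 genes lower (3.35%), against 52.4% positive in all genes. The ESCs have another origin, strain and time in the medium than the iPSCs, and these cannot be told apart in this comparison.

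**Figure D5:**
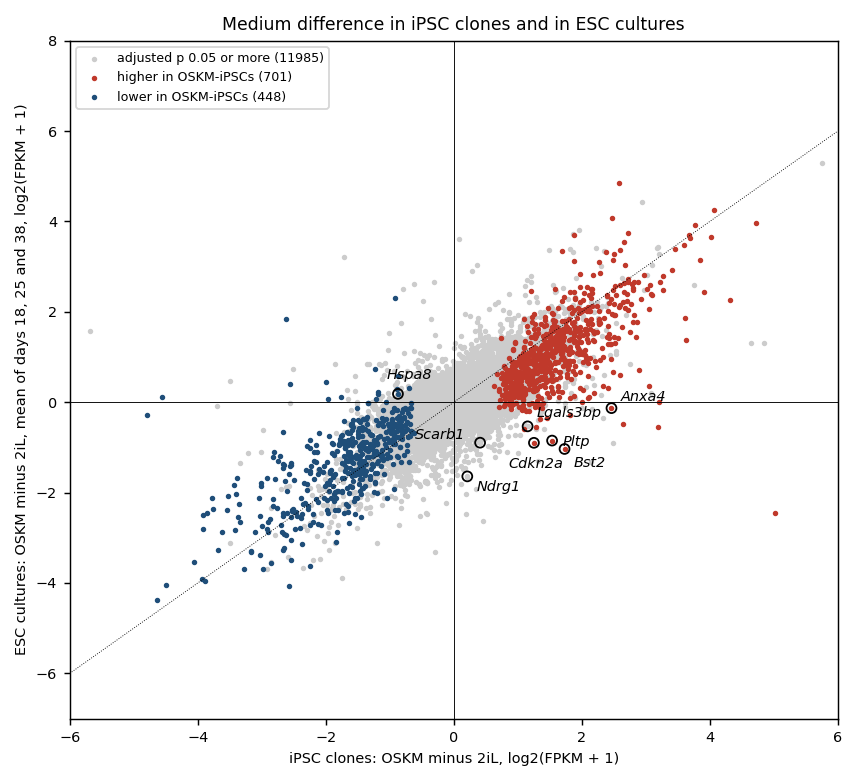
Log2 differences between the media in iPSCs (x axis) against the mean difference in ESCs over days 18, 25 and 38 (y axis), with 1 point per gene and the genes called in iPSCs in colour. Most called genes lie on the same side of 0 in both, and Bst2 (1.73 and -1.03), Pltp (1.54 and -0.85) and Cdkn2a (1.25 and -0.90) lie on opposite sides.

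The genes with opposite signs and the smallest interaction p mostly had a positive difference in iPSCs. The sign in ESCs is that of a mean over the days, and the ESC difference was not tested on its own. A reversal of the medium effect is thus not shown. FPKM of the ESC cultures overlapped between the media in all of these genes but Scarb1. Bst2 was at 38.1 to 82.5 in OSKM-ESCs against 63.5 to 339.96 in 2iL-ESCs, and Anxa4 at 2.71 to 13.04 against 5.92 to 9.72. Scarb1 was at 12.6 to 15.1 against 17.2 to 38.5. Bst2, tetherin, an interferon-induced antiviral protein, was at 95.5 and 88.7 against 28.3 and 25.9 FPKM in iPSCs (log2 difference 1.73) and had a difference of -1.03 in ESCs, an interaction of 2.77 (adjusted p = 1.96e-06). Anxa4, an annexin of epithelia, was at 37.9 and 34.5 against 5.22 and 6.30 FPKM (2.46 in iPSCs, -0.13 in ESCs, interaction 2.59). Pltp, a phospholipid transfer protein, was at 43.4 and 40.6 against 13.7 and 13.9 FPKM (1.54 in iPSCs, -0.85 in ESCs, interaction 2.38). In these 3 the clones of each medium were close and far from those of the other. Cdkn2a had differences of 1.25 in iPSCs and -0.90 in ESCs (interaction 2.15). Hspa8, a constitutive heat shock protein, was at 1122 and 1179 against 2055 and 2158 FPKM (-0.87 in iPSCs, 0.18 in ESCs, interaction -1.06). Scarb1, the HDL receptor, and Ndrg1, a stress-induced gene, were not called in iPSCs (0.41 and 0.21). They had mean differences of -0.90 and -1.64 in ESCs, with interactions of 1.31 and 1.85. Lgals3bp, a secreted galectin-binding protein, was not called in iPSCs either (1.15, adjusted p = 0.0677) and had an interaction of 1.69, which ranged from 0.49 to 3.52 over the alternatives with an adjusted p of up to 0.284. The other 7 kept an adjusted p of at most 0.00914 in each alternative run.

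Genes of the lists above also differed in size between iPSCs and ESCs. The brachyury gene T had almost no difference in iPSCs (3.53 and 0.659 against 2.04 and 1.23 FPKM, log2 difference 0.07), against 3.61 in ESCs (interaction -3.54, adjusted p = 0.000482). Egr1 and Fgf8 had smaller differences in iPSCs (2.58 and 1.88) than in ESCs (4.85 and 3.70), with interactions of -2.27 and -1.82. Myc likewise differed by 1.69 in iPSCs and 3.35 in ESCs (interaction -1.66). In the other direction Krt7 and Cldn3 differed by 2.90 and 2.60 in iPSCs and by 0.71 and 0.60 in ESCs, with interactions of 2.20 and 2.00. H19 and Peg10 differed by 4.32 and 3.61 in iPSCs and by 2.26 and 1.87 in ESCs. The Zscan4 copies were farther down in iPSCs, with Zscan4c at -3.92 against -2.49 in ESCs (interaction -1.43, adjusted p = 0.00027). Dppa3, not called in iPSCs (-0.08), had a difference of -1.81 in ESCs (interaction 1.72).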

How the data were processed

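Poly-A RNA, extracted with TRIzol and built into libraries with an unstranded NEBNext Ultra kit, was sequenced by the authors, who aligned reads to GRCm38 with STAR 2.7.1a, kept uniquely mapped reads and ran StringTie 2.0, per the submitters' notes, which also name Cuffdiff 2.2.1. The deposited FPKM of 55471 genes was used, with 11 repeated identifiers summed. The deposited coverage signal was used for depth, and the deposited TPM as an alternative. TPM was usable in 16 libraries and recomputed from FPKM in 2, where 1 gene had a failed value each. Of the genes, 4193 on X or Y and 86 on scaffolds were left out. Depth in reads is unknown, so no counting interval is given.

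The 4 clones were fitted with limma 3.58.1 in R 4.3.3 (lmFit and eBayes, trend on) as log2(FPKM + 1), with Benjamini-Hochberg adjustment over 13134 genes with FPKM over 1 in at least 1 clone, and the interaction over 14075 genes in 16 libraries. In each simulated data set only few genes were changed, fewer than were called in the data. The 2 against 2 design recovered 0% of those changed by a log2 of 1, 68% at 2 and 82% at 3. It made 0, 4 and 6 other calls among 13134 genes. The interaction recovered 74% at 1 and 96.5% at 2, with 7 other calls each among 14075 genes. The fibroblast share of each clone was the median ratio to MEFs of 18 fibroblast genes. Figures used Python 3.11.15 and matplotlib 3.10.9. The comparison, gene lists and naming rules were chosen with earlier results of these data known. Genes were named as the 12 in each direction with the largest smallest clone-to-clone difference, up to 4 called members of a list in each direction and up to 3 not called with the highest FPKM, up to 8 genes in each direction between clones of a medium, and the 8 smallest interaction p-values with opposite signs. Other called members of the epithelial, naive, LIF, focal adhesion, formative, imprinted and lipid lists were added after their values were seen. Alternatives were another pseudocount, filters and scalings, TPM, no trend, a single fit of all conditions, sex-linked genes kept, fibroblast RNA taken off, and leaving out each clone. Same-numbered ESC cultures of a day deviated together little (correlations 0.131, 0.086 and 0.012). A few genes that these rules name are not reported here.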

Additional observations from a re-analysis of the deposited data

Results flagged for a closer look

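List members added later were not checked here. The genes checked were those picked by the rules for media separation, list members and opposite signs. Of these, 68 had a difference between the media that itself differed between iPSCs and ESCs by the limma interaction (Benjamini-Hochberg adjusted p under 0.05). The values below are the log2 difference in iPSCs minus the mean log2 difference in ESCs over the 3 days, so a positive value means that the gene stood higher in OSKM-iPSCs, relative to 2iL-iPSCs, than in OSKM-ESCs relative to 2iL-ESCs. The OSKM-iPSC and 2iL-iPSC clones also differ in passage from each other, which the ESC cultures do not share in the labels. Naive and general pluripotency and transgene factors had interactions of Dppa3 1.72, Tfap2c 1.52, Nr5a2 -0.83, Sall4 -0.79, Lin28a -0.68, Trim28 -0.44, Pou5f1 -0.63 and Myc -1.66. Formative, ERK, WNT and LIF genes had interactions of Fgf8 -1.82, Etv4 -1.27, Dusp6 -1.25, Egr1 -2.27, Ier2 -0.39, Spry1 0.81, Spry2 -1.45, Ccnd1 -1.04, Cdx1 -1.70, Notum -1.16, Pim1 0.71 and Pim3 0.70. Epithelial, mesenchymal and adhesion genes had interactions of Cdh1 0.52, Cldn3 2.00, Krt7 2.20, Itga5 0.82 and Itgb1 1.27. Lineage genes had interactions of the brachyury gene T -3.54, Eomes -0.77 and Hand1 1.26. Imprinted and methylation genes had interactions of H19 2.06, Peg10 1.74, Sgce 1.39, Meg3 -1.01, Rian -1.23, Mest -0.69 and Gadd45a 0.55. Copies of Zscan4 had interactions of Zscan4a -1.11, Zscan4c -1.43, Zscan4d -1.66, Zscan4e -1.45 and Zscan4f -1.41. Metabolic genes had interactions of Eno1 0.71, Pfkp 1.04, Slc2a1 1.01, Slc16a3 0.78, Mthfd2 0.63, Tdh -1.16, Acaca 0.90, Fads2 0.79, Lss 0.72, Msmo1 0.79 and Scd2 0.94. Cell cycle, antigen presentation and oncofetal genes had interactions of Cdk4 -0.45, Cdkn2a 2.15, Cdkn2b 1.06, Trp53 -0.47, Psmb10 -0.82 and Hmga1 -0.46. The genes farthest apart between the iPSC media had interactions of Car4 0.75, Jam2 -0.52, Mapk12 0.55 and Syt13 1.46. The genes with opposite signs had interactions of Anxa4 2.59, Bst2 2.77, Hspa8 -1.06, Lgals3bp 1.69, Ndrg1 1.85, Pltp 2.38 and Scarb1 1.31. Chance alone would pass some genes at this threshold, and the adjusted p-values ranged from 1.96e-06 (Bst2) to 0.0487 (Hmga1). Groups of 2 clones are too small to judge a single clone as an outlier.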

How the results depend on the processing

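No paired analysis was possible for the iPSCs because their clones share only the number 3. For the interaction, a replicate block of same-numbered ESC cultures gave 1027 genes in place of 2006, and the numbers are only shared numbers. Leaving out 1 clone moved the count of genes higher between 0 and 1294 (701 with all) and of genes lower between 0 and 639 (448 with all). With the fold cutoff these ranged from 837 to 2236 higher and from 498 to 1236 lower, and the interaction from 1370 to 3536 genes over all libraries left out (3083 without OSKM-iPSC clone 1, 3536 without clone 3). With 1 clone left in a medium, it is assumed to vary like the other medium. With no filter on low values, counts were 2001 higher and 1297 lower, 3098 and 2108 at the fold cutoff, and 1310 for the interaction, but most variances are then near 0 and this fit is unreliable. An FPKM limit of 5 gave 850 and 479 at the fold cutoff, from fewer genes tested. Quantile normalization gave 455 higher, and a single fit of all 9 conditions gave 3552 higher and 2311 lower from more residual degrees of freedom. With ESCs of day 38 only, the interaction gave 479 genes. The cause of the other moves was not tested.

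The calls counted here are 90, those of genes picked by the rules for media separation, list members and opposite signs. Called members added to lists later, such as Nanog, Esrrb and Cldn4, were not among the 90. Of the 90, 65 to 90 were kept under each alternative that keeps both 2iL-iPSC clones, on which every call rests. Losses were 19 without OSKM-iPSC clone 1 (adjusted p from 0.0519 to 0.114), 19 without clone 3 (0.0512 to 0.114) and 16 with fibroblast RNA taken off (0.0504 to 0.618), while no named call changed sign. Hspa8 and Acaca were lost without either OSKM-iPSC clone (Hspa8 adjusted p = 0.0985 and 0.08, Acaca 0.075 and 0.0602). Among all 1149 calls, 1 changed sign with fibroblast RNA taken off, Ephx1, from 1.18 to -0.36. In the simulated 2 against 2 design, where few genes were changed, none changed by a log2 of 1 was recovered. The data themselves gave calls at smaller differences, as in Lin28a (0.73) and Acaca (0.86). The simulated recovery therefore does not give the recovery in these data. A missing call still says little about genes with small differences.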

Other observations

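Some values stood apart but come from gene models that a short-read table resolves poorly. Malat1, a nuclear noncoding RNA, was at 29.3 and 33.9 FPKM in the OSKM-iPSC clones and listed at 0 in both 2iL-iPSC clones, with 26.8 in MEFs. Gm42047, a predicted gene on chromosome 8, was at 79.9 and 68.3 FPKM in the OSKM-iPSC clones, 10.4 in MEFs, and likewise listed at 0 in both 2iL-iPSC clones. Both were chosen after their values were seen, and since an exact 0 can be a failed estimate, no fold is given. Eno1b was at 1.21 in OSKM-iPSC clone 1 and 104 in clone 3 against 182 and 212 FPKM, with 112 in MEFs, beside Eno1 at 1277 and 1132 against 751 and 880 FPKM.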
